A study of Mus musculus with 12 samples.

Results

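This account concerns 3 genes of the mouse medial prefrontal cortex (mPFC): the oxytocin receptor gene Oxtr, the vasopressin V1a receptor gene Avpr1a, and Tfap2d, which encodes a transcription factor of the AP-2 family. They are 3 of the 34745 genes in the deposited table. Oxtr and Tfap2d were selected on their CPM (counts scaled to library size) in these same data, which was lower in mice with nerve injury than in naive mice, and Avpr1a was added as the related receptor. The difference of Oxtr and Tfap2d between injured and naive mice is therefore described here and carries no test. Avpr1a, and the difference between hemispheres for all 3 genes, did not enter that choice and were tested.

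All animals were wild-type (WT) male mice, sampled on day 28. Injured mice had a constriction placed around the sciatic nerve (chronic constriction injury, CCI), a model of lasting neuropathic pain. The right mPFC (contralateral to the nerve) and the left mPFC (ipsilateral) were sequenced apart, with 4 libraries each, and 4 libraries came from naive mice, with no hemisphere stated. The naive mice were habituated and had no sham operation stated, so the operation and the nerve constriction cannot be told apart. Right and left libraries that share a number in their codes were read as hemispheres of the same mouse, which the labels do not say outright. No age or strain is stated. The labels do not say that each library of a group came from a separate animal, so p-values measure the spread between these samples.

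Oxytocin and vasopressin are closely related peptides, made mainly by neurons of the hypothalamus. The oxytocin receptor and the V1a receptor both couple to Gq proteins, which act through phospholipase C and calcium. In mouse mPFC the oxytocin receptor is known from a population of somatostatin interneurons and from some pyramidal neurons, and the V1a receptor is best known from the lateral septum. AP-2 delta, the product of Tfap2d, is known in the mouse from the developing midbrain, where the inferior colliculus depends on it, and from retinal ganglion cells.

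Oxtr (ENSMUSG00000049112) lies on chromosome 6, 112473683 to 112489943 (GRCm38), on the minus strand. Avpr1a (ENSMUSG00000020123) lies on chromosome 10, 122448499 to 122453453. Tfap2d (ENSMUSG00000042596) lies on chromosome 1, 19103022 to 19166346, both of these on the plus strand. GENCODE M21 annotates all 3 as protein coding, with 2 exons in the longest transcript of Oxtr, 2 in Avpr1a and 8 in Tfap2d. The start of Tfap2d overlaps the antisense gene Gm15825 by 1819 bases, and Gm15825 had 16 counts over the 12 libraries. The processed pseudogene Gm10075 overlaps Tfap2d by 545 bases. Avpr1a lies inside the antisense gene Gm48877. Neither Gm10075 nor Gm48877 has an entry in the deposited table, so their counts are unknown. Whether counting used the strand is not stated, so sense and antisense reads may not be separated at both loci.

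The promoters of the pair of genes chosen for low levels are shown because Tfap2d encodes a DNA-binding factor whose family motif can be looked for at Oxtr. Both are RefSeq sequences of GRCm38.p6, from 250 bases before to 50 bases after an annotated start. Oxtr is chr6:112489776-112490075 on the minus strand and Tfap2d is chr1:19102772-19103071 on the plus strand. Capitals mark the AP-2 palindrome, searched as GCC and GGC with 3 or 4 bases of any kind between them, which reads the same on both strands.

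Oxtr: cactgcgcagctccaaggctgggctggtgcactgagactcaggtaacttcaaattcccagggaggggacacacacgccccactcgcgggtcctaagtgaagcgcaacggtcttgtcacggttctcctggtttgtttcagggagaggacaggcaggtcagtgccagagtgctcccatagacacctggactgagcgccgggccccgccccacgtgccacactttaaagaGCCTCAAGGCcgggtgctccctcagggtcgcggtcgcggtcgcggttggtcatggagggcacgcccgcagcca

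Tfap2d: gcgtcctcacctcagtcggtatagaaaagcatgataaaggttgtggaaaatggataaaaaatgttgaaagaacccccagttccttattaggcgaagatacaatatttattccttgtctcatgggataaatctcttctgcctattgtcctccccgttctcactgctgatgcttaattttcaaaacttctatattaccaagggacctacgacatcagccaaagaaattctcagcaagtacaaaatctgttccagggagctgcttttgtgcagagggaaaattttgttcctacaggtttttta

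The Oxtr promoter held 1 copy with the spacer of 4, beginning 23 bases before the annotated start, and 0 copies with the spacer of 3. The Tfap2d promoter shown held neither form, nor did its other 2 annotated starts or the Avpr1a promoter. Of 32851 mouse promoters of this length, 14.8% held the form with 4 bases between, 16.6% the form with 3 and 27.0% either. A match describes the letters only.

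Total counts ranged from 16089476 to 20647242 per library. Contralateral 2 stood apart: between hemispheres 0 genes passed with it and 159 passed without it (73 higher and 86 lower), so values without it are given where they move. No gene passed at an adjusted p under 0.05 in any of the 4 edgeR comparisons (0%), while an unadjusted p under 0.05 was reached by 4.2% for summed CCI mice, 3.78% for contralateral against naive, 4.83% for ipsilateral against naive and 8.36% between hemispheres.

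Levels between genes were compared per length, with the deposited FPKM (fragment counts scaled to gene length and library size). In contralateral CCI libraries Oxtr was at 0.884 ± 0.363, Tfap2d at 0.243 ± 0.113 and Avpr1a at 0.152 ± 0.0786 FPKM, and in ipsilateral ones at 0.642 ± 0.0809, 0.166 ± 0.158 and 0.104 ± 0.0679 FPKM in the same order (SD, n = 4 each). The ranges of Tfap2d and Avpr1a overlapped in both hemispheres of CCI mice. In naive libraries Oxtr was at 1.25 ± 0.0927, Tfap2d at 0.655 ± 0.121 and Avpr1a at 0.136 ± 0.0347 FPKM (SD, n = 4), and the 3 ranges did not overlap. The length behind the FPKM of Oxtr was 8.43 kb, against 4704 bases for its longest GENCODE M21 transcript, so its level per length depends on the gene model.

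**Figure D1:**
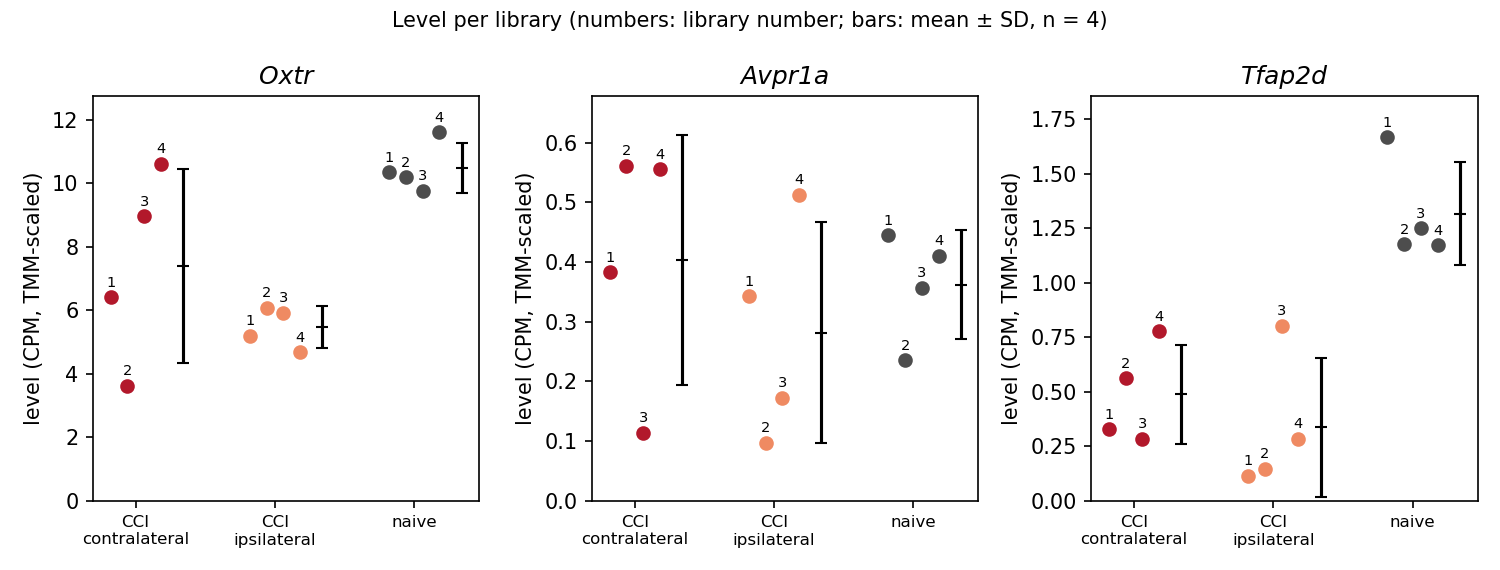
Level of Oxtr, Avpr1a and Tfap2d in each of the 12 libraries, in CPM (counts scaled to library size), with the library number above each point and the mean ± SD (n = 4) beside each group. Oxtr and Tfap2d lie low in CCI libraries, except Oxtr in contralateral 4 at 10.6 CPM, while the 3 groups of Avpr1a overlap.

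Oxtr was lower in the mPFC of CCI mice, more evenly on the side of the injured nerve than opposite to it. Levels from here on are CPM scaled by TMM factors (trimmed mean of M values, edgeR). Contralateral libraries 1 to 4 held 6.39, 3.62, 8.96 and 10.6 CPM, and ipsilateral libraries 1 to 4 held 5.19, 6.08, 5.91 and 4.67 CPM, against 10.3, 10.2, 9.75 and 11.6 CPM in naive libraries 1 to 4. All 4 ipsilateral libraries and contralateral 1, 2 and 3 lay below every naive library, and contralateral 4 lay inside the naive range. Of 15808 genes tested, 2.64% were lower in every ipsilateral than in every naive library.

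The log2 fold change of Oxtr was -0.50 (SE 0.24) for contralateral against naive and -0.94 (SE 0.24) for ipsilateral against naive. These 2 comparisons share the naive libraries. With the counts of both hemispheres of a mouse summed, CCI mice 1 to 4 held 5.83, 5.02, 7.45 and 7.67 CPM, against 9.79 to 11.6 CPM in naive mice. The CCI mean was 6.49 ± 1.28 CPM and the naive mean 10.5 ± 0.781 CPM (SD, n = 4 each), with a log2 fold change of -0.69 (SE 0.14). No CCI mouse overlapped a naive one, as in 216 of 16179 genes tested (1.34%) that were lower in every CCI mouse. Oxtr was chosen for this difference, so nothing is read from its place among them.

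The spread of Oxtr differed in size between groups. The variance was 21.1 times what counting error alone gives in contralateral libraries and 1.43 times in ipsilateral ones, against 1.03 times in naive libraries. The group sums were 524 counts in contralateral and 401 counts in ipsilateral libraries, against 721 counts in naive ones. The contralateral fold change rested on contralateral 2 and 4: it was -0.27 without contralateral 2 and -0.72 without contralateral 4.

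Tfap2d, at the lower level, had the wider fold difference. Contralateral libraries 1 to 4 held 6, 9, 5 and 14 counts and ipsilateral libraries 1 to 4 held 2, 3, 14 and 5 counts, against 30, 20, 21 and 20 counts in naive libraries 1 to 4. Every CCI library lay below every naive one, with at most 14 counts against at least 20. This held for 42 of 15808 genes tested (0.266%), and for contralateral against naive libraries alone 1.11% of genes were lower without overlap; Tfap2d was chosen for this contrast.

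In CPM, Tfap2d stood at 0.487 ± 0.228 in contralateral and 0.337 ± 0.320 in ipsilateral libraries, against 1.32 ± 0.236 in naive ones (SD, n = 4 each). Its log2 fold change was -1.43 (SE 0.43) for contralateral against naive and -1.98 (SE 0.46) for ipsilateral against naive, both set against the same naive libraries. For summed CCI mice it was -1.69 (SE 0.29), with 8, 12, 19 and 19 counts in CCI mice 1 to 4. Those sums draw on 2 libraries each and the naive counts on 1. The ratio of summed counts, adjusted for depth, was 0.368 for contralateral over naive (95% exact interval 0.240 to 0.551) and 0.248 for ipsilateral over naive (0.151 to 0.393). These intervals cover counting error only. Tfap2d was chosen for this contrast, so they are no test of it.

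Tfap2d entered the tests only through the naive group. The filter on low counts, at 0.565 CPM, was reached by 1 of 4 contralateral and 1 of 4 ipsilateral libraries, against 4 of 4 naive ones, and the gene would not have passed with the CCI libraries alone. The variance of Tfap2d was 1.92 times counting error in contralateral and 5.54 times in ipsilateral libraries, against 0.749 times in naive ones. Ipsilateral 3 stood apart among ipsilateral libraries, at 0.803 CPM against 0.114 to 0.285 CPM in the others. Without it the ipsilateral fold change was -2.83.

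**Figure D2:**
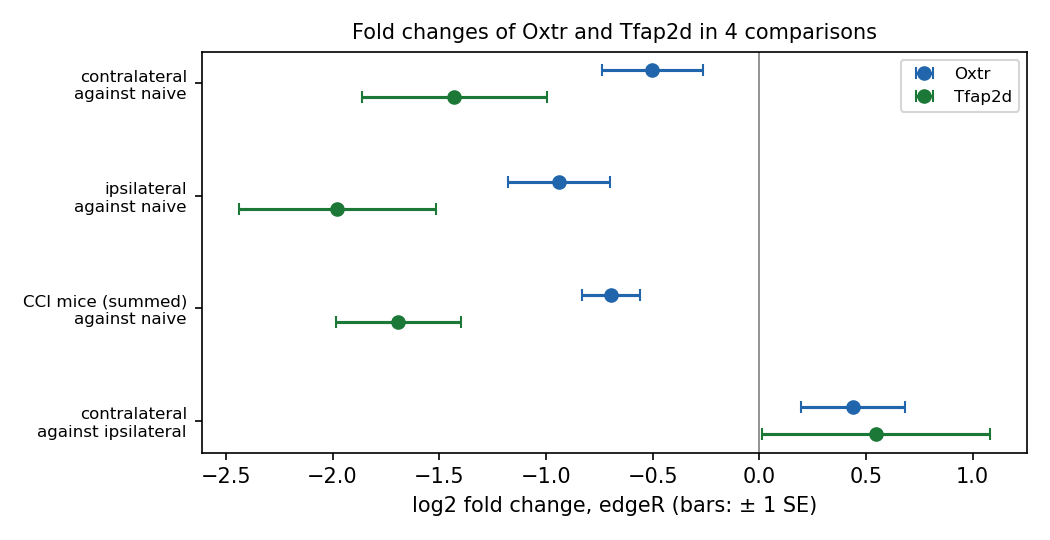
Log2 fold change with 1 SE of Oxtr and Tfap2d in the 4 comparisons, from edgeR. Both genes lie below 0 in the 3 comparisons with naive libraries, from -0.50 to -0.94 for Oxtr and from -1.43 to -1.98 for Tfap2d, and above 0 for contralateral against ipsilateral, where neither passed the test. Tfap2d entered that fit only through the naive libraries.

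Avpr1a was at the edge of detection and its groups overlapped. Contralateral libraries 1 to 4 held 7, 9, 2 and 10 counts and ipsilateral libraries 1 to 4 held 6, 2, 3 and 9 counts, against 8, 4, 6 and 7 counts in naive libraries 1 to 4. Low and high libraries occurred in both hemispheres of CCI mice, on either side of the naive range. No library reached the filter on low counts, so Avpr1a was outside the fits across genes and was compared by exact permutation of its CPM values over 70 arrangements, two-sided, for which the smallest p is 0.0286.

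Avpr1a averaged 0.336 ± 0.162 CPM in summed CCI mice and 0.362 ± 0.0919 CPM in naive mice (SD, n = 4 each; exact permutation p = 0.800). It averaged 0.403 ± 0.210 CPM in contralateral and 0.281 ± 0.185 CPM in ipsilateral libraries, against 0.362 ± 0.0916 CPM in naive ones (SD, n = 4 each). The exact permutation p was 0.714 for contralateral against naive and 0.457 for ipsilateral against naive. After adjustment over the 4 comparisons of Avpr1a, each exact permutation p was 0.800. The depth-adjusted ratio of summed counts was 1.10 for contralateral over naive (95% exact interval 0.619 to 1.97) and 0.754 for ipsilateral over naive (0.397 to 1.41). These intervals cover counting error only, and the variance between libraries was 1.92 times counting error in contralateral and 2.32 times in ipsilateral libraries, against 0.399 times in naive ones.

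The hemispheres of CCI mice were then set against each other, a contrast that did not enter the choice of the genes. Oxtr was higher on the contralateral side in mice 1, 3 and 4, with 6.39 against 5.19, 8.96 against 5.91 and 10.6 against 4.67 CPM, and lower in mouse 2, with 3.62 contralateral against 6.08 CPM ipsilateral. Its log2 fold change was 0.44 (SE 0.24, 95% interval -0.04 to 0.92), in a fit that did not pair the hemispheres. The edgeR adjusted p was 0.630 (edgeR unadjusted p = 0.0955). The exact permutation test of its CPM, also unpaired, gave p = 0.286 (two-sided, n = 4 each), so Oxtr passed neither test. Of 15808 genes tested in this contrast, 0 passed at an adjusted p under 0.05 (0%) and 1322 had an unadjusted p under 0.05 (8.36%). The fold change of Oxtr was 0.66 without contralateral 2 (edgeR adjusted p = 0.0629) and 0.22 without contralateral 4 (edgeR adjusted p = 0.978).

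Tfap2d was higher on the contralateral side in mice 1, 2 and 4, by 0.214, 0.415 and 0.492 CPM, and lower there in mouse 3, with 0.284 contralateral against 0.803 CPM ipsilateral. The log2 fold change was 0.55 (SE 0.53, 95% interval -0.50 to 1.59; edgeR adjusted p = 0.779), in a fit that the gene entered only through the naive libraries. The exact permutation test of its CPM, which needs no such filter, gave p = 0.514 (two-sided, n = 4 each). Without ipsilateral 3 the log2 fold change was 1.40 (edgeR adjusted p = 0.683), in a fit with the naive libraries as well. Avpr1a had a ratio of 1.43 between the hemisphere means (exact permutation p = 0.371, n = 4 each). The mouse that went against the others was thus mouse 2 for Oxtr and mouse 3 for Tfap2d, and for Avpr1a it was also mouse 3.

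**Figure D3:**
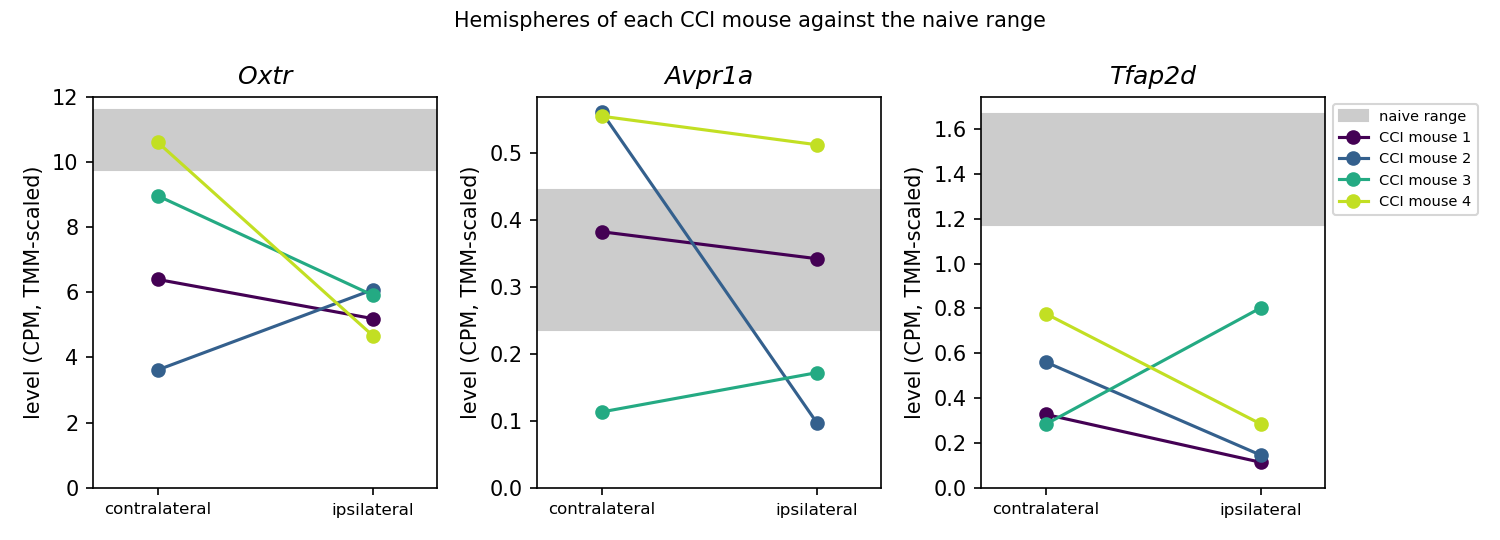
Level in the contralateral and ipsilateral mPFC of each CCI mouse (lines join libraries with the same number), with the range of the 4 naive libraries in grey, in CPM. Oxtr of mouse 4 reaches 10.6 CPM, inside the naive range, on the contralateral side only, and Tfap2d stays below the naive range in all 8 CCI libraries.

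Oxtr and Tfap2d did not share their order among libraries. Over the 12 libraries the Pearson correlation of their log2 CPM was 0.63, and after the mean of each group was subtracted it was 0.04. Oxtr and Avpr1a had -0.08 and -0.40, and Avpr1a and Tfap2d had 0.33 and 0.26, in the same order. These correlations describe 12 libraries in which right and left libraries, read as hemispheres of the same mouse, may not be independent. The counts of Avpr1a and Tfap2d are sparse.

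The mix of cortical tissue in a library moved with Oxtr, mainly among the contralateral libraries. Cortical markers, which check the labelled tissue, were present in every library. The 3 general cortical excitatory markers Slc17a7, Neurod6 and Tbr1 summed to 1923 to 2157 CPM in contralateral and 2073 to 2379 CPM in ipsilateral libraries, against 2136 to 2196 CPM in naive ones. The 8 deep-layer markers (Fezf2, Bcl11b, Etv1, Tle4, Foxp2, Syt6, Hs3st4 and Nxph4) summed to 296 to 514 CPM in contralateral and 401 to 476 CPM in ipsilateral libraries, against 362 to 415 CPM in naive ones. The 7 upper-layer markers (Cux1, Cux2, Lamp5, Calb1, Rasgrf2, Otof and Wfs1) summed to 351 to 929 CPM in contralateral and 372 to 632 CPM in ipsilateral libraries, against 559 to 687 CPM in naive ones. Contralateral 2, at 351 CPM, and ipsilateral 1, at 372 CPM, stood lowest. A score per library, the mean of the markers' log2 CPM centred on each gene, was -0.86 in both of them and between -0.29 and 0.66 in the other 10 libraries.

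After group means were subtracted, Oxtr followed this upper-layer score with a Pearson correlation of 0.86 (0.74 without subtraction). Oxtr ran against the deep-layer score (-0.84). It also followed the scores of mural cells (0.89), meninges and fibroblasts (0.82), endothelium (0.80), microglia (0.79) and astrocytes (0.77), and ran against that of oligodendrocytes (-0.69). The score of somatostatin interneurons gave -0.02 and that of 3 general cortical excitatory markers (Slc17a7, Neurod6 and Tbr1) gave -0.45. Among neighbouring regions, the septum score gave 0.58 (0.71 without subtraction) and the olfactory bulb score 0.18 (0.70 without subtraction). The striatum score gave -0.15 and the claustrum and endopiriform score -0.31. All these are descriptions over 12 libraries, after group means were subtracted. They rest mostly on the contralateral libraries. There the variance of Oxtr was 21.1 times counting error, against 1.43 times in ipsilateral and 1.03 times in naive libraries. Ipsilateral 1 had the lowest upper-layer score of its group (-0.86) but more Oxtr than ipsilateral 4 (5.19 against 4.67 CPM). In bulk tissue, fewer cells that carry Oxtr and less Oxtr RNA per cell cannot be told apart.

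Most markers that Oxtr followed had negative fold changes in ipsilateral libraries. Fits of Oxtr against naive libraries with the upper-layer score as covariate are described at the end. The part of these markers as a cause of the level of Oxtr was not tested. For ipsilateral against naive, all 7 upper-layer markers had a negative log2 fold change (median -0.26), as did all 6 of meninges and fibroblasts (-0.51), all 4 of mural cells (-0.34), all 5 of astrocytes (-0.20), all 4 of endothelium (-0.12) and 5 of 6 of microglia (-0.12), against a median of 0.00 for all genes tested. For contralateral against naive, 5 of 7 upper-layer, 3 of 6 meningeal, 4 of 4 mural and 4 of 5 astrocyte markers had a positive one. None of these markers passed at an adjusted p under 0.05.

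Between hemispheres, the contrast that did not choose Oxtr, a fit with the upper-layer score as a covariate gave a log2 fold change of 0.07 (SE 0.17; edgeR adjusted p = 0.990), against 0.44 without the covariate. This fit was chosen after seeing the data, in which the score followed Oxtr. All 7 upper-layer markers also had a positive log2 fold change in this contrast (median 0.50). The smaller value was therefore largely set in advance, and no cause is read from it. No fit with the mural or meningeal score was run.

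**Figure D4:**
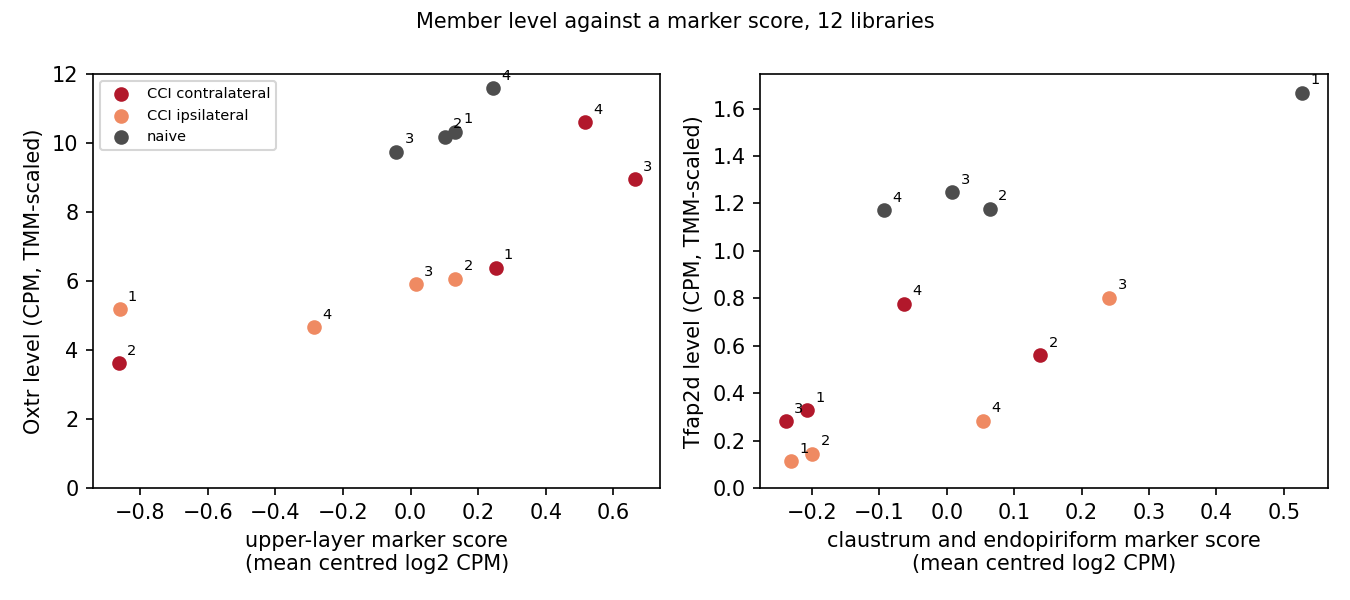
Left, Oxtr level (CPM) against the upper-layer marker score of each of the 12 libraries; right, Tfap2d level against the claustrum and endopiriform marker score, with library numbers beside the points. Contralateral 2 and ipsilateral 1 lie at upper-layer scores of -0.86, and naive 1 lies highest on the claustrum score, at 0.53.

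Tfap2d followed other markers than Oxtr. Its correlation after subtraction of group means was 0.76 with the claustrum and endopiriform score (Nr4a2, Ntng2, Gnb4 and Synpr), 0.55 with the general interneuron score and 0.10 with the upper-layer score. The claustrum markers summed to 174 to 198 CPM in contralateral and 152 to 219 CPM in ipsilateral libraries, against 181 to 261 CPM in naive ones. All 4 had a negative fold change in summed CCI mice, with Ntng2 at -0.28 (edgeR adjusted p = 1.00). With the claustrum score as covariate, chosen after seeing the data, Tfap2d stood at -0.99 (SE 0.41) for contralateral against naive, against -1.43 without it. For ipsilateral against naive Tfap2d then stood at -1.71 (SE 0.40), against -1.98. For summed CCI mice it stood at -1.47 (SE 0.30), against -1.69. Tfap2d was chosen for these contrasts, so the fits are descriptions, and the part of these markers as a cause was not tested.

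Summed markers of the olfactory bulb, septum and astrocytes lay below all naive libraries in the 4 ipsilateral libraries and overlapped them in contralateral ones. None of these markers passed, and their part in the levels of Oxtr and Tfap2d was not tested. The 4 olfactory bulb markers summed to 7.17 to 16.2 CPM in contralateral and 6.79 to 8.83 CPM in ipsilateral libraries, against 13.1 to 16.5 CPM in naive ones. Cdhr1 and Doc2g made up most of these sums, while Tbx21 and Eomes stood at 0.328 CPM or less in every library and were listed at 0 in part of them. The 4 septum markers (Zic1, Zic2, Zic4 and Trpc4) summed to 29.3 to 38.5 CPM in contralateral and 23.4 to 30.2 CPM in ipsilateral libraries, against 31.3 to 37.2 CPM in naive ones. The 5 astrocyte markers summed to 739 to 1158 CPM in contralateral and 734 to 837 CPM in ipsilateral libraries, against 854 to 957 CPM in naive ones. The 7 somatostatin interneuron markers summed to 406 to 466 CPM in contralateral and 403 to 475 CPM in ipsilateral libraries, against 400.1 to 462 CPM in naive ones. Of these 7, 5 had a positive and 2 a negative log2 fold change in summed CCI mice. Those of smallest p were Npy (0.19), Grin3a (-0.09) and Chodl (0.38), and Sst stood at 0.08 (edgeR adjusted p = 1.00 for each).

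The peptides themselves and the remaining receptors were almost absent from the mPFC. Oxt had 7 counts in contralateral and 1 count in ipsilateral libraries, against 0 counts in naive ones, and 6 of the 7 came from contralateral 3. Avp had 2 counts in contralateral and 3 counts in ipsilateral libraries, against 0 counts in naive ones. Avpr1b had 1 count in contralateral and 5 counts in ipsilateral libraries, against 0 counts in naive ones, while Avpr2, the receptor of the kidney, had 0 counts in all 12 libraries. None of these 4 genes passed the filter on low counts.

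Of 10 genes that process or degrade the peptides, all 10 were tested in summed CCI mice against naive mice, with 5 positive and 5 negative log2 fold changes and a median of 0.01, against a median of 0.00 and 8140 positive of 16179 for all genes tested. None of the 10 passed at an adjusted p under 0.05, as no gene did in this comparison (0%), and 1 of 10 had an unadjusted p under 0.05, against 4.2% of all genes tested. Pcsk2, a prohormone convertase, stood at 0.12 (SE 0.05), the amidating enzyme gene Pam at -0.08 (SE 0.06) and the convertase chaperone gene Scg5 at 0.06 (SE 0.04), each with an edgeR adjusted p = 1.00. Lnpep, whose product cleaves oxytocin and vasopressin, was measured with a wide spread, from 10.3 to 16.3 CPM in contralateral and 8.54 to 20.3 CPM in ipsilateral libraries, against 4.67 to 26.2 CPM in naive ones. Lnpep was singled out after its values were seen.

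Of 22 genes of Gq signalling, 11 had a positive and 11 a negative log2 fold change in summed CCI mice, with a median of 0.00. None passed, and 4 of 22 had an unadjusted p under 0.05, all 4 with a negative fold change. Among all 16179 genes tested 679 reached it (4.2%), 388 of them with a negative fold change. The list as a whole was not tested. The genes of smallest p were Arrb1 (-0.20, SE 0.07), the arrestin that uncouples receptors from G proteins, Prkca (-0.15, SE 0.06), a protein kinase C, and Plcb2 (-0.30, SE 0.12), a phospholipase C, each with an edgeR adjusted p = 1.00. Gnaq stood at -0.02 (SE 0.04) and Gna11 at 0.02 (SE 0.05).

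The other AP-2 genes were low. Tfap2b, the next gene in the table beyond the end of Tfap2d, at 42.6 kb, averaged 0.528 ± 0.376 CPM in contralateral and 0.353 ± 0.279 CPM in ipsilateral libraries, against 0.625 ± 0.282 CPM in naive ones (SD, n = 4 each), with a log2 fold change of -0.46 (SE 0.36; edgeR adjusted p = 1.00) in summed CCI mice. Tfap2a had 21 counts in contralateral and 7 counts in ipsilateral libraries, against 9 counts in naive ones. Tfap2c had 5 counts in contralateral and 3 counts in ipsilateral libraries, against 2 counts in naive ones, and Tfap2e had 0 counts in all libraries. The AP-2 co-activator gene Cited2 stood at 0.12 (SE 0.07) and Cited4 at 0.03 (SE 0.13), and the AP-2 repressor genes Kctd1 and Kctd15 at -0.02 (SE 0.09) and 0.05 (SE 0.15). None of these 4 passed in summed CCI mice against naive mice (edgeR adjusted p = 1.00 for each).

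Of the neighbours of Oxtr only Rad18 was tested, and it did not pass. Cav3, which ends 0.811 kb before the Oxtr gene model, had 12 counts over all libraries and was not tested, and Rad18, on the other side at 129.9 kb, had a log2 fold change of -0.03 (edgeR adjusted p = 1.00) in summed CCI mice. Tmem5 and Ppm1h, beside Avpr1a, stood at -0.10 and -0.04 (edgeR adjusted p = 1.00 for both).

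The genes whose log2 CPM was most like that of Oxtr over the 12 libraries were Ogn (Pearson correlation 0.93), Sntg2 (0.93), Gm8098 (0.92), Dpp7 (0.92) and Dtl (0.91). Ogn, the proteoglycan osteoglycin, ranged from 0.437 to 2.34 CPM. After group means were subtracted the closest were Glt8d1, Srrt and Ankfn1, with correlations of 0.96, 0.96 and 0.95. For Tfap2d the closest over the 12 libraries were Aprt (0.90), Gfra1 (0.87), Gtpbp8 (0.87), Aaed1 (0.86) and Ndst4 (0.84), and after subtraction 1700096K18Rik (0.93), Polr3e (0.90) and E130102H24Rik (0.88). Gfra1 encodes a co-receptor of GDNF and Ndst4 an enzyme of heparan sulfate synthesis, which ranged from 0.913 to 22.3 CPM. For Avpr1a the closest reached 0.83 (Rgma), 0.81 (Tdrkh), 0.80 (Krtcap3), 0.79 (Cebpg) and 0.79 (Enox1), and after subtraction 0.91 (Krtcap3 and Kpna2) and 0.88 (Rnf128), from counts of at most 10 per library. With 15808 genes searched over 12 libraries, these values describe likeness only.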

How the data were processed

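Illumina mRNA libraries of 12 mPFC samples were compared. The authors deposited raw counts per gene and library, and FPKM values beside them, per the file headers. The submitters' processing notes name HISAT2 2.0.4, GRCm38 and mm10 without their roles; counting program and annotation: not given in the sources used here. Differences were fitted to the deposited counts with edgeR 4.0.16 in R 4.3.3 (TMM factors, filterByExpr by group, robust quasi-likelihood, Benjamini-Hochberg adjustment over all genes tested, two-sided). All 12 libraries entered a fit of 3 groups with 15808 genes; counts of both hemispheres were summed for a fit of 8 mice with 16179 genes. Scripts were tested on simulated data. Deposited FPKM served only to compare levels between genes. SE is the fold change over the root of its F statistic; intervals are 95%, normal for fold changes and exact for counts. Marker scores and correlations used log2 CPM with a prior count of 2. limma 3.58.1 and DESeq2 1.42.0 served alternatives.

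The members, gene lists and tests were chosen with earlier results of these data known. Named were the 3 members, all genes of the receptor and AP-2 lists, up to 3 genes of smallest p per other list, the genes beside each member, and the 5 (group means subtracted, 3) most alike. Gnaq, Gna11, Sst and Lnpep were added after their values were seen. A member of the general cortical excitatory list is not reported here.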

Additional observations from a re-analysis of the deposited data

Results flagged for a closer look

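Tfap2d in naive 1 stood apart from the other naive libraries, at 1.67 CPM against 1.17 to 1.25 CPM. Its gap to the next library was 0.845 of the group's range, past Dixon's 95% critical value for 4 samples. Of 12 groups of 4 examined in this way this was the only such value, and a 95% limit is passed by chance in some groups. The same library had the highest claustrum and endopiriform score, 0.53, whose part in the value was not tested. Without naive 1 the log2 fold change of Tfap2d in summed CCI mice was -1.55.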

How the results depend on the processing

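Oxtr and Tfap2d kept a negative fold change against naive libraries under every alternative run. Both were chosen for that difference, so the sign was largely set in advance and its constancy lends no support. In summed CCI mice the fold change ranged from -0.79 to -0.59 for Oxtr and from -1.86 to -1.47 for Tfap2d. The value of -1.47 came from the fit with the claustrum score as covariate. With the upper-layer score as covariate, chosen after seeing the data, the fold change of Oxtr moved in different directions. It stood at -0.68 for ipsilateral against naive, against -0.94, and at -0.61 for contralateral against naive, against -0.50. For summed CCI mice it stood at -0.67, against -0.69. Without ipsilateral 3, Tfap2d stood at -2.83 for ipsilateral against naive and at 1.40 between hemispheres. Avpr1a changed sign on leaving out single libraries, between -0.42 and 0.14 for summed CCI mice and between -0.053 and 0.46 for contralateral against naive. Of its 5 genes most alike, 3 remained with a prior count of 0.5.

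Genes passing numbered 0 in each edgeR comparison. For summed CCI mice they became 5 with no filter on low counts and 31 with DESeq2, for contralateral against naive 3 with DESeq2 and 1 in the fit of the compared groups, and for ipsilateral against naive 9 with DESeq2 and 7 in the fit of the compared groups. limma voom gave 0 in all 4. Leaving out 1 library gave 0 to 6 for summed CCI mice, 0 to 2 for contralateral against naive, 0 to 1 for ipsilateral against naive, and 0 to 159 between hemispheres, where the 159 arose without contralateral 2. Of the other listed genes 0 to 1 then passed, Mapk3. The causes were not tested.

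With the replicate number as a block, 1 gene passed in each comparison with naive libraries and 0 between hemispheres. Oxtr stood at -0.71 in summed CCI mice and at 0.38 between hemispheres. Same-numbered right and left libraries did not deviate together (correlations -0.14 to 0.06, 0 of 4 matching their own number best), so the data give no hint of the pairing. Tfap2d could not be fitted between hemispheres without the naive libraries, where it failed the filter on low counts. Tfap2d and Avpr1a rest on 2 to 30 counts per library.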
